A study of Arabidopsis thaliana with 2 samples.

Results

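The genes APL3, APL4, DPE1 and SBE2.2 of Arabidopsis thaliana encode enzymes of starch synthesis and breakdown, and PWD at locus AT4G24450 encodes a relative of the starch dikinases. These 5 genes, of 13355 read on the array, were picked for how their signals in the 2 arrays compared, so their differences between the arrays describe the choice and carry no test. Each was found by its symbol and locus in the array's annotation, and each was read by 1 probe set that the annotation gives to that gene alone. Shoots of ecotype Col-0 (stock code N1092) were profiled on 2 Affymetrix ATH1 arrays. The array of the NPA group held RNA from plants grown on medium with N-1-naphthylphthalamic acid, an inhibitor of polar auxin transport, dissolved in DMSO. The array of the DMSO group held RNA from plants grown on medium with an equal volume of DMSO alone. Plants of both groups were about 2 weeks old, at developmental stage 1.04 with about 6 rosette leaves. After 2 days of stratification they were kept near 20 C under 16 h of light a day. The NPA concentration is not settled, since the treated sample's notes give 10 uM and the growth protocol of both samples 10 mM. The number of plants per sample and the hour of harvest are not given in the sources used here. With 1 array per group no value has a replicate error, and that number limits how precise any ratio can be.

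Starch is an insoluble store of glucose that leaf chloroplasts build in the light and break down at night. Synthesis starts when ADP-glucose pyrophosphorylase, built of small and large subunits, makes ADP-glucose from glucose 1-phosphate and ATP. Starch synthases then lengthen glucan chains and branching enzymes add the branch points. Breakdown starts when dikinases put phosphate on the granule surface, and amylases and disproportionating enzymes then release maltose and glucose.

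Signals are the authors' array intensities on a linear scale. Ratios compare the arrays for 1 probe set at a time, and signals of different probe sets are not read as levels of one gene against another. Signals up to 27.9 on the NPA array and 28.3 on the DMSO array, the 40th percentile of each, were treated as at the floor. Genes above the floor on 1 or both arrays counted as measured, which left 7752 of the 13355 genes. All 5 starch genes were measured, APL4 through its NPA signal alone.

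The 2 large-subunit genes of ADP-glucose pyrophosphorylase had higher signals on the NPA array. APL3, which encodes a large subunit best known in Arabidopsis from tissues that import sugar, had a signal of 265 with NPA and 63.5 with DMSO. Both values lay above the floor, and the ratio was 4.18-fold, a log2 ratio of 2.06. APL4, which encodes the large subunit most like APL3, had 92.7 with NPA and 18.3 with DMSO. Its DMSO signal lay below the floor, so it was at least 3.28-fold higher with NPA, a log2 bound of 1.71. APL3 was thus well above the floor on both arrays, while APL4 was above it on the NPA array only. Since whole shoots were profiled, more cells that express a gene and more RNA per cell cannot be told apart. The main large subunit of leaves, APL1, the large subunit APL2 and the small subunits APS1 and APS2 have no probe set named for them alone here and were not analysed.

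SBE2.2, a starch branching enzyme that in leaves works beside the closely related SBE2.1, stood apart from the other 4 genes. Its signal was 505 with NPA and 413 with DMSO, a ratio of 1.22-fold and a log2 ratio of 0.29. Both signals were far above the floor, and the difference was small beside those of the other 4 genes. Of all measured genes, 24.6% had a log2 ratio at least as high. SBE2.1 and EMB2729, also listed as a branching enzyme gene, were not analysed here.

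The dikinase gene at AT4G24450 had a signal of 166 with NPA and 51.0 with DMSO. Both were above the floor, the ratio was 3.26-fold and the log2 ratio 1.71. The gene table gives this locus the symbol PWD and the synonym ATGWD2, for glucan, water dikinase 2. In Arabidopsis that enzyme has been placed outside the plastid, in phloem companion cells, so the gene is related to the starch dikinases by family rather than by a shown role at the leaf starch granule. The same table gives the symbol PWD also to AT5G26570, with the synonym ATGWD3, which encodes the plastid phosphoglucan, water dikinase that acts on starch granules. AT5G26570 had a signal of 157 with NPA and 96.9 with DMSO, a ratio of 1.62-fold and a log2 ratio of 0.69. The direction was the same at both loci, and only AT4G24450 reached 2-fold. None of the 5 companion-cell markers listed, SUC2 among them, has a probe set named for it alone here, so that cell type could not be read.

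DPE1, the plastid disproportionating enzyme that joins and splits short malto-oligosaccharides and releases glucose, had a signal of 123 with NPA and 34.5 with DMSO. The ratio was 3.57-fold and the log2 ratio 1.84. The DMSO signal lay just above its floor of 28.3, so this ratio rests on a dim control value. With the floor at the 55th percentile the DMSO signal fell under it, and DPE1 became at least 2.32-fold higher. DPE2, which acts on maltose in the cytosol, was not analysed here.

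**Figure D1:**
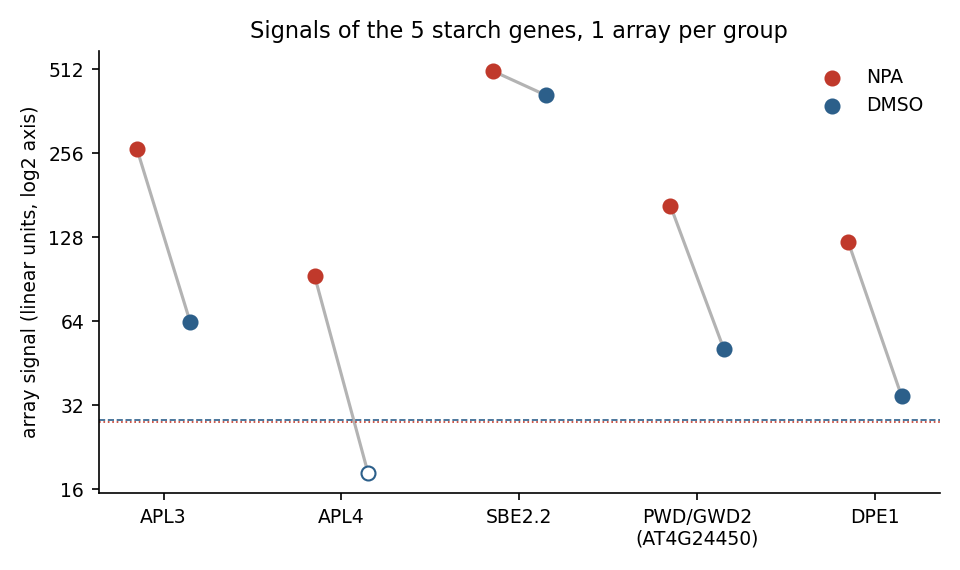
Array signal (linear units on a log2 axis) of the 5 starch genes in the NPA array (red, left) and the DMSO array (blue, right), with 1 point per array and the floors as a dotted line (NPA, 27.9) and a dashed line (DMSO, 28.3). The NPA point is the higher one for each gene, the open DMSO point of APL4 at 18.3 lies below the floor, and the line of SBE2.2 is the flattest. Heights compare arrays within a gene and not genes with each other.

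With NPA, 4 of the 5 genes were higher by 2-fold or more and 0 were lower by as much, beside 3.75% and 2.13% of all measured genes. Since the genes were picked on this comparison, nothing is read from that count. The same 4 genes were also past 3-fold, as were 0.967% of all measured genes in the higher direction and 0.232% in the lower. In order of log2 ratio, APL3 stood at place 36 from the highest of 7752 genes, DPE1 at 46, APL4 by its bound at 58, the dikinase gene AT4G24450 at 59 and SBE2.2 at 1907. The places of the first 4 genes lie close together. Their ratios between 3.26-fold and 4.18-fold have no replicate error with which to order them. Of the 7752 genes, 6808 were above the floor on both arrays. The ratios of the rest are bounds, so the places and shares count those genes by their bounds. Around each gene, the log2 ratios of the 500 genes nearest in mean signal had an SD of 0.54 (DPE1) to 0.66 (SBE2.2). This spread holds differences between plants as well as measurement error. The 18 probe sets of spike-ins added at hybridisation, which hold no difference between plants, had log2 ratios between -0.61 and 0.20, with a mean of -0.07 and an SD of 0.21.

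**Figure D2:**
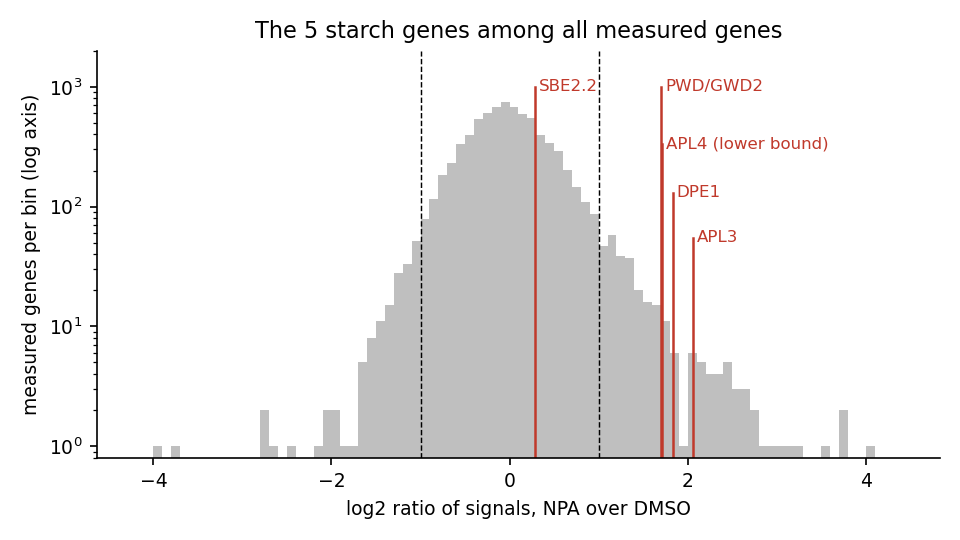
Number of measured genes (log axis) per 0.1 of log2 signal ratio, NPA over DMSO, for 7752 genes in grey, with the 5 starch genes as red lines and 2-fold as dashed lines. SBE2.2 lies at 0.29 within the bulk of the genes, and the other 4 lie between 1.71 and 2.06 in the right tail, with APL4 as a lower bound.

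The wider pathway was covered only in part. Of 56 genes written into starch lists by role, 13 have a probe set of their own here and all 13 were measured, the 5 genes above and 8 others. All 13 together had a median log2 ratio of 0.28, with 9 above and 4 below 0. Since the 5 genes were picked on this comparison, the 8 others are what that choice left. Nothing about the pathway is read from whether they shifted. The 8 others had a median log2 ratio of 0.03, beside -0.03 over all measured genes. They lay 4 above and 4 below 0, beside 3676 above and 4076 below over all measured genes. Of the 8, 6 come from the list of synthases and granule factors, with a median of -0.13, so the median mostly describes that list. The other 6 of the 12 genes on that list have no probe set of their own here. Only AT5G65685 was listed under a synthase name, SS5, so these values do not describe the starch synthases as a group. None of the 8 reached 2-fold in either direction, and at 1.5-fold there was 1 in each direction, beside 11.2% of all measured genes higher and 10.6% lower. The higher one was the plastid dikinase gene AT5G26570. The lower one was AT4G32190, with a signal of 137 with NPA and 207 with DMSO, a log2 ratio of -0.59. AMY1, an alpha-amylase, had 33.8 with NPA and 30.4 with DMSO, both near the floor, and a log2 ratio of 0.15. The other 5, listed under starch synthases and granule factors, are written by locus because the gene table holds no symbol for them, as is the case for AT4G32190. AT3G55760 had a log2 ratio of 0.28, AT5G39790 0.16, AT5G03420 -0.09, AT5G65685 -0.18 and AT1G27070 -0.43. The lists of plastid hexose phosphate supply, debranching enzymes, beta-amylases and export of breakdown products had 0 named members of 6, 4, 9 and 3 and were not analysed here.

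**Figure D3:**
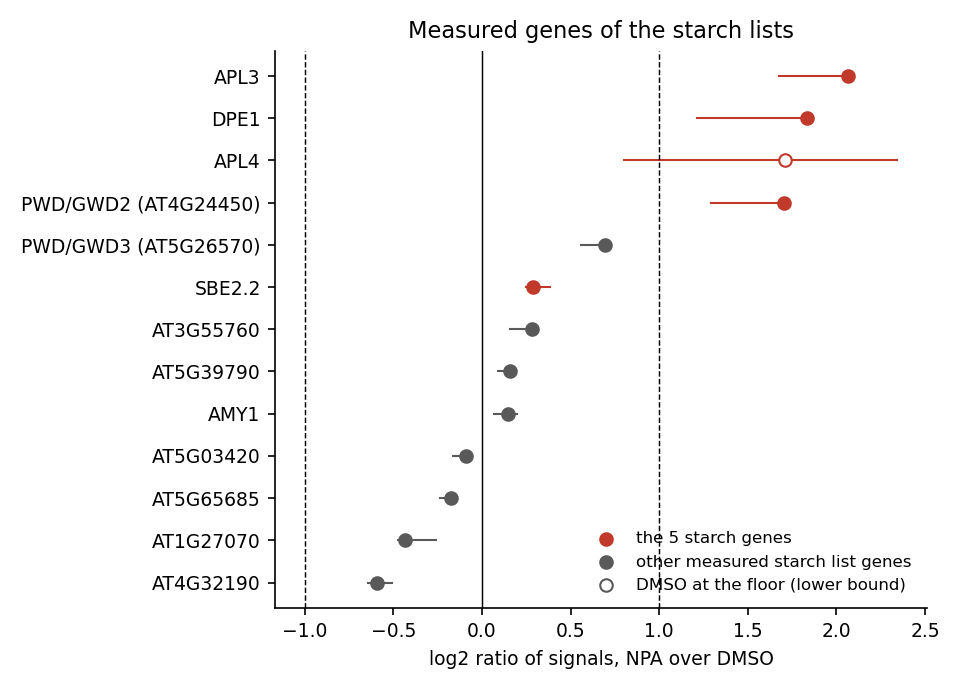
Log2 signal ratio, NPA over DMSO, of the 13 measured starch list genes, with the 5 starch genes in red, 8 others in grey and 2-fold as dashed lines. Points are the values in the text, the open point is a lower bound, and each line spans the values under the other scalings and floors. The points of the 4 genes at the top exceed 1, but the line of APL4 reaches down to 0.80, with the floor at the 55th percentile. The points of the 8 others lie between -0.59 and 0.69.

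Readouts around the pathway were few. ATSPS4F, a sucrose-phosphate synthase gene, is the only 1 of 16 listed genes of sucrose synthesis and cleavage with a named probe set here. It had a signal of 376 with NPA and 525 with DMSO, a log2 ratio of -0.48. Of 12 listed genes of the circadian clock, which times starch turnover over the day, only GI has a named probe set here. GI had 102 with NPA and 57.1 with DMSO, a log2 ratio of 0.84, and any part of the time of harvest in the differences above was not tested. None of the 5 listed genes of sugar starvation has a named probe set here.

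The labelled tissue was checked against its markers. All 5 named leaf mesophyll markers of 9 listed were bright, with signals from 2147 to 5105 with NPA and from 3671 to 5597 with DMSO. Their summed signal was 18373 with NPA and 23077 with DMSO, and their log2 ratios ran from -0.77 for SBPASE to -0.13 for RCA. As deposited, they were lower on the array on which the 4 starch genes were higher, but the sign depended on the scaling for some. LHCB4.2 and RCA turned positive after quantile normalization, at 0.06 and 0.05, where LHCB4.1 came to -0.05, and LHCB4.1, LHCB4.2 and RCA turned positive after lowess centring. SBPASE and PRK stayed negative, at -0.54 and -0.20 after quantile normalization and at -0.43 and -0.12 after lowess centring. Root markers were named for 3 of 7 genes. PYK10 had 425 with NPA and 609 with DMSO, EXPA18 28.3 and 36.8, and EXPA7 was below the floor on both. Of the guard cell markers 2 of 4 were named, FMA with 47.4 with NPA and 64.5 with DMSO, and AT1G22690 with 193 and 682, a 3.54-fold lower signal with NPA. The only named xylem marker, GUT2, had 98.4 with NPA and 90.3 with DMSO, the only named seed marker, LEA4-5, was below the floor on both, and 0 of 5 flower markers were named. The ratio of 3' to 5' signal in the control transcripts for actin, GAPDH and ubiquitin ran from 0.803 to 6.32 with NPA and from 0.893 to 3.02 with DMSO over 6 probe set pairs. It was lower with NPA in 4 of the pairs and higher in 2, the older pairs for actin and ubiquitin. The part of tissue makeup and RNA quality in the starch gene differences was not tested.

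Genes with the most similar pair of signals were looked up for the 4 starch genes above the floor on both arrays, by Euclidean distance over the 2 log2 signals. Nearest to APL3 were AT4G14020 and AT1G53070, at distances of 0.15 and 0.18. Nearest to DPE1 were AT3G14560 and AT3G14280, at 0.036 and 0.046. The dikinase gene AT4G24450 lay nearest to PUB19 and AT2G16990, at 0.052 and 0.066, and SBE2.2 to AT2G46100 and SRC2, at 0.0058 and 0.026. Since signals of different probe sets are not comparable levels and there are only 2 arrays, this lookup describes nearby points in the data and nothing more.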

How the data were processed

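The deposited values are array signal intensities on a linear scale, 1 per probe set and array. Per the submitters' processing notes, MAS5 and GCOS were the software, without versions. After trimming the lowest and highest 2% of signals, both arrays averaged 100 (100.0 with NPA and 100.0 with DMSO), so the arrays had been scaled before deposit. Of 22810 probe sets, 64 are controls, 13513 have 1 gene, 503 several and 8730 are unnamed here. Genes were named through the platform annotation and the TAIR10.1 gene table (names only), which matched 13436 of the 13513, and read from their brightest probe set with 1 gene. Floors were set at the 40th percentile of each array before the log2 ratio was taken. No test was run. Differences were sized by a 2-fold rule. The genes and lists were chosen with earlier results of these data known. The text names the 5 genes, every measured starch list gene, up to 4 members of each other list (and any at 2-fold), and 2 nearest genes per starch gene; 1 more leaf marker is named for its sign under other scalings. Steps were tested on simulated data, with changes planted only in probe sets far above the floor. Dim control signals such as those of APL4 and DPE1 were therefore not covered. Alternatives were other scalings, floors, probe set choices and size rules of 1.5-fold and 3-fold. Python 3.11.15, numpy 2.4.6, pandas 2.3.3, statsmodels 0.14.6 and matplotlib 3.10.9 were used.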

Additional observations from a re-analysis of the deposited data

How the results depend on the processing

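No paired analysis was possible because there is a single replicate number, 1, in both groups. For the same reason no array was left out in turn. The count of 4 starch genes at 2-fold held in all alternatives but the floor at the 55th percentile, where 3 remained above 2-fold and APL4 came to a bound of 1.75-fold. A floor at the 25th percentile, or none, put APL4 at 5.07-fold, and a floor added to each signal at 2.59-fold. Adding the floor gave 3.20-fold for APL3, 2.45-fold for AT4G24450 and 2.41-fold for DPE1, a shrinkage built into that setting. Median, quantile and lowess scaling left each of the 13 starch list genes within 0.21 of its log2 ratio, the SD of the spike-ins. With the floor at the 55th percentile 3 starch list genes were at the floor on both arrays and gave no value. The median of the other starch list genes ran from -0.09 to 0.04 over the alternatives and so has no settled sign. The value of -0.09 came from the floor at the 55th percentile, without those 3 genes. With all 8 kept, the lowest median was -0.04, after quantile normalization. Each of the 5 genes has 1 probe set, so the alternatives on probe set choice could not move them. Signals near the floor limit APL4 and DPE1 most.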

Other observations

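Further genes of sugar handling were looked up in the annotation after their values were seen. TMT2, a tonoplast transporter that loads hexoses into the vacuole, had a signal of 284 with NPA and 109 with DMSO, a ratio of 2.61-fold. Its relatives differed less: TMT1 had 107 with NPA and 97.2 with DMSO, and TMT3, at the floor with NPA, had 21.0 and 33.0. QQS, a gene found only in Arabidopsis thaliana and named for its effect on leaf starch content, had 59.5 with NPA and 38.9 with DMSO, a log2 ratio of 0.61 that shrank to 0.16 once the floor was raised to the 55th percentile. F2KP, which sets the level of fructose 2,6-bisphosphate and with it the split of carbon between sucrose and starch, had 288 with NPA and 505 with DMSO, a log2 ratio of -0.81. AKINBETA1, a subunit of the energy-sensing kinase SnRK1, had 138 with NPA and 169 with DMSO, a log2 ratio of -0.29.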
